A study of Homo sapiens with 4 samples.

Results

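The collapsin response mediator protein family (the DPYSL genes and CRMP1) and the neuropilin, plexin and class 3 semaphorin genes that work with it were followed in HGC27 cells with and without a knockout of RUNX3. The members were listed by gene symbol, with earlier results of these data known, among them the fall of DPYSL3: DPYSL2, DPYSL3, DPYSL4, DPYSL5, CRMP1, NRP1, NRP2, PLXNA1, SEMA3A and SEMA3C, which are 10 of the 25559 gene symbols counted. All 10 were listed in every library, and 9 had enough reads to be tested, DPYSL4 being the exception. DPYSL3 had the largest difference among them, with counts of 1246 and 1192 in wt cells and 45 and 58 in RUNX3KO cells.

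Class 3 semaphorins are secreted proteins that guide migrating cells and growing axons. They bind neuropilins, which have short cytoplasmic tails and pass the signal on through a plexin partner, usually of the A subfamily. The DPYSL proteins act inside the cell, where they bind tubulin and actin regulators, change the cytoskeleton at the leading edge and lose or gain these contacts as kinases such as CDK5 and GSK3 phosphorylate them. The family is best known from growth cones of neurons, and neuropilins serve in other cells also as co-receptors for vascular endothelial growth factor.

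HGC27 is a line of human gastric cancer cells grown in culture, and RUNX3 is a transcription factor of the Runt family. Poly(A) RNA was sequenced from 2 libraries of wildtype HGC27 cells (wt) and 2 libraries of HGC27 cells with RUNX3 knocked out (RUNX3KO). Per the study's methods the knockout was made with Cas9 delivered by lentivirus, puromycin selection and cloning of single cells, and neither the number of clones nor separate cultures behind the replicates is stated, so p-values measure only the spread between these libraries. Each library held between 11731401 and 12110876 reads counted on genes. RUNX3 itself had 351 and 308 counts in wt and 225 and 185 in RUNX3KO libraries, a log2 fold change of -0.70 (SE 0.0961, edgeR adjusted p = 1.43e-09). The transcript was thus lower in both knockout libraries but still counted in each. Protein was not measured in these files, and the study's methods describe separate checks of the deletion on RNA and protein after cloning. Defining epithelial markers were absent or low in this gastric cancer line: KRT19 had no count in any library, EPCAM had 1, 1, 0 and 0 counts, and the 6 epithelial markers summed to 3.13 and 3.13 CPM (counts scaled to a common library size) in wt and 9.23 and 10.8 CPM in RUNX3KO libraries. KRT8 had 19 and 11 counts in wt and 72 and 81 in RUNX3KO libraries (log2 fold change 2.33), CDH1 had 15 and 21 against 30 and 32 (0.77), and KRT18 had 0 and 0 against 2 and 14. KRT8 and CDH1 were called higher, and the part of such markers in the results was not tested.

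Of the 9 members tested, 5 were lower in RUNX3KO cells and 3 were higher at an adjusted p under 0.05 (edgeR quasi-likelihood test, adjusted by Benjamini and Hochberg's method over 12967 genes). The lower members were DPYSL2, DPYSL3, CRMP1, NRP2 and PLXNA1, and the higher ones DPYSL5, NRP1 and SEMA3A. Among all tested genes 24.4% were called lower and 24.5% higher by the same threshold, so single calls were common in this comparison and most of those among the members were small. The study's methods ask for at least 2-fold with a p of 0.05 or less, which was taken here as unadjusted. By these criteria only DPYSL3 was lower and 0 members were higher, against 4.01% and 2.11% of all tested genes. Each of the 9 members had at least 45 counts in every library, so none entered the test through 1 group alone. The plot of member levels shows the libraries behind these calls.

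**Figure D1:**
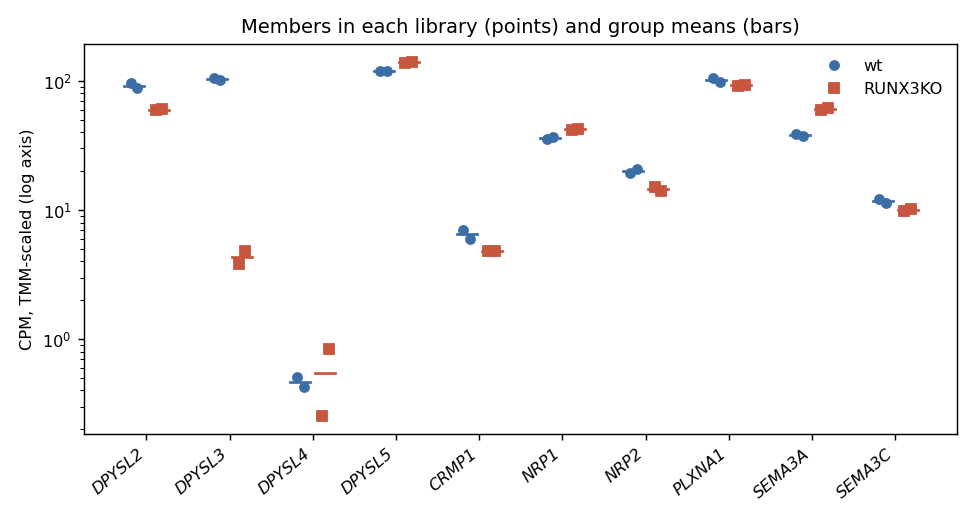
Level of each of the 10 genes in every library, in CPM scaled by TMM on a log axis, with circles for the 2 wt libraries, squares for the 2 RUNX3KO libraries and bars for group means. DPYSL3 falls from a mean of 103 to 4.31 CPM, the other tested genes move by at most 1.59-fold, and the DPYSL4 libraries of both groups overlap below 1 CPM.

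DPYSL3 encodes CRMP4, a family member that binds actin filaments and microtubules. The gene lies on the minus strand of chromosome 5, at chr5:146770371-146889631 of hg19. Its level was 103 ± 3.20 CPM (SD, n = 2) in wt and 4.31 ± 0.715 CPM (SD, n = 2) in RUNX3KO cells, a log2 fold change of -4.57 (SE 0.0931, 95% interval -4.76 to -4.39, edgeR adjusted p = 2.42e-61). Both knockout libraries were therefore 23.8-fold below the wt libraries on average, and the groups were far apart relative to the spread within either. The SE and interval were derived from the test statistic and are likely too narrow for so large a change. Among the 6529 tested genes with a log2 fold change below 0, DPYSL3 ranked 42 by the size of the fall and 2 by p. Of the 40 tested genes nearest to DPYSL3, 17 had a log2 fold change below 0, called or not, and the median was 0.079. Counts of neighbours are given by sign in this way throughout. The DPYSL3 value stayed between -4.76 and -4.41 when any 1 library was left out. As these are bulk libraries, fewer cells with the transcript and less of it per cell cannot be told apart.

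The annotation gives DPYSL3 more than 1 start. In GENCODE on hg19 the MANE Select transcript starts at 146889631 and has 2052 coding bases, and a shorter one starts downstream at 146833522 and has 1710 coding bases. Counts per gene do not separate them. The sequence before the upstream of the DPYSL3 starts in RefSeq is given because this was the member that changed most, and the sequence before a DPYSL5 start because it was the only member window to hold the core Runt-family motif TGTGGT. Each was taken from RefSeq on GRCh38.p14 and runs 5′ to 3′ over the 250 bases before the start, with TGTGGT or its reverse complement ACCACA in capitals. DPYSL3 window 1 is chr5:147510069-147510318 on the minus strand, and DPYSL5 window 1 is chr2:26847745-26847994 on the plus strand.
DPYSL3 window 1: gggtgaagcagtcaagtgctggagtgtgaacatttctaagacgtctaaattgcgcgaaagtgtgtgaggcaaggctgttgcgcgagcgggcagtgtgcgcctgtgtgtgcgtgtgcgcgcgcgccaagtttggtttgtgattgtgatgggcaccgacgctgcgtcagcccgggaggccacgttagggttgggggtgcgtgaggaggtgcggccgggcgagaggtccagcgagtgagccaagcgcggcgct
DPYSL5 window 1: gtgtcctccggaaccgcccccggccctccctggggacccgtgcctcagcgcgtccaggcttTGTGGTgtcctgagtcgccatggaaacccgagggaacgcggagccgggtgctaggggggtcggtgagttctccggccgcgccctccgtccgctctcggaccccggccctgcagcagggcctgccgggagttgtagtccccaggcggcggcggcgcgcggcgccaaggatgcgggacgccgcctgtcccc
The motif was searched for on both strands of windows from 250 bases before to 50 after each start. Of 35116 RefSeq windows 4591 held it, which is 13.1%. Windows were on hand for 7 of the 10 members, 13 windows in all, and the single match began at position -189 of DPYSL5 window 1. Both DPYSL3 windows in RefSeq held none, and 64.3% of the bases of each were G or C. A match is only a match of letters, and its absence says only that these letters are not in the window.

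DPYSL2, which encodes CRMP2, the best studied tubulin-binding member, was the other family gene with a clear fall. It is on the plus strand at chr8:26371547-26515694 of hg19. Its counts were 1133 and 1039 in wt and 704 and 724 in RUNX3KO libraries. The level went from 91.9 ± 5.60 to 59.9 ± 0.407 CPM (SD, n = 2 each), a log2 fold change of -0.62 (SE 0.0527, edgeR adjusted p = 3.46e-18), or 1.53-fold. The groups did not overlap, and the call held with each library left out, between -0.68 and -0.55. PNMA2, on the opposite strand, overlaps DPYSL2 by 62 bases of its span and had 573 and 571 counts in wt and 401 and 409 in RUNX3KO libraries, a log2 fold change of -0.51 (SE 0.0692, edgeR adjusted p = 8.17e-10). Whether reads were counted by strand is not stated, so reads in the shared bases cannot be assigned to either gene with certainty.

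DPYSL5 encodes CRMP5, also a cytoskeletal regulator of growing neurites. It lies on the plus strand at chr2:27070615-27173219 of hg19 and was the family member that rose. Counts of 1422 and 1407 in wt and 1627 and 1696 in RUNX3KO libraries did not overlap and gave 120 ± 0.863 and 139 ± 2.28 CPM (SD, n = 2 each). The log2 fold change was 0.22 (SE 0.0406, 95% interval 0.14 to 0.30, edgeR adjusted p = 3.18e-06), a 1.16-fold difference.

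CRMP1, a mediator of SEMA3A signalling, was a low gene in both groups. It lies on the minus strand at chr4:5749811-5894813 of hg19. It had 83 and 71 counts in wt and 57 and 58 in RUNX3KO libraries, a log2 fold change of -0.43 (SE 0.180, edgeR adjusted p = 0.038). This call was fragile: without wt replicate 1 the value was -0.32 with an adjusted p of 0.267, without RUNX3KO replicate 1 or 2 the adjusted p was 0.174 or 0.181, and DESeq2 gave 0.31. CRMP1 also overlaps EVC on the opposite strand over 66222 bases of its span, and EVC had 261 and 257 counts in wt and 223 and 240 in RUNX3KO libraries. DPYSL4, which encodes CRMP3 and lies at chr10:134000452-134019263 of hg19, had 6 and 5 counts in wt and 3 and 10 in RUNX3KO libraries and was not tested because its counts did not pass the filter on low values. DPYS, the dihydropyrimidinase whose sequence the family resembles, had 0 counts in all 4 libraries.

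The response of DPYSL3 was set against that of each relative by the difference of their log2 fold changes. The value of DPYSL3 less that of DPYSL2 was -3.96 (95% interval -4.17 to -3.75), and less that of CRMP1 it was -4.14 (95% interval -4.54 to -3.74). Against DPYSL5 the difference was -4.79 (95% interval -4.99 to -4.59). These intervals rest on the SE of DPYSL3 and are likely too narrow as well. DPYSL2 and CRMP1, a pair chosen after their values were seen, differed by -0.18 (95% interval -0.55 to 0.18), an interval that includes 0.

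Per kilobase of exon, DPYSL5, DPYSL3 and DPYSL2 were the 3 highest of the 10 genes in wt cells, at 17.0 ± 0.122, 14.4 ± 0.446 and 12.6 ± 0.767 CPM per kilobase (SD, n = 2). In RUNX3KO cells DPYSL5 was still first at 19.8 ± 0.323 CPM per kilobase, while DPYSL3 stood 9th at 0.601 ± 0.0996 CPM per kilobase, below CRMP1 at 0.822 and above DPYSL4 at 0.174. Each gene in the wt order was separated from the next by both libraries. In the RUNX3KO order PLXNA1 and DPYSL2, both at 8.21 CPM per kilobase, could not be ranked because their libraries overlapped. These orders depend on the exon length used and were not repeated per coding length for all 10 genes. Per coding length the RUNX3KO family shares of DPYSL3 (1.61% and 1.99%) and CRMP1 (2.04% and 1.98%) overlapped.

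The makeup of the family changed accordingly. As a share of family reads per kilobase, DPYSL3 made up 31.7% and 31.8% in wt libraries and 1.82% and 2.24% in RUNX3KO libraries. DPYSL5 went from 36.9% and 38.3% to 67.1% and 66.6%. DPYSL2 made up 28.4% and 27.3% in wt and 28.0% and 27.5% in RUNX3KO libraries, which overlap, whereas per kilobase of coding sequence it made up 27.2% and 26.1% in wt and 25.5% and 25.1% in RUNX3KO libraries, which do not. Shares are parts of one whole, so the larger share of DPYSL5 goes with a rise of that gene of only 1.16-fold. Summed over the 5 genes, the family level was 46.3 and 44.2 CPM per kilobase in wt and 29.1 and 30.0 in RUNX3KO libraries, a ratio of 1.53 of wt to RUNX3KO. These shares are descriptions, since with 2 libraries a group the smallest p of an exact permutation test (two-sided) is 0.333.

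**Figure D2:**
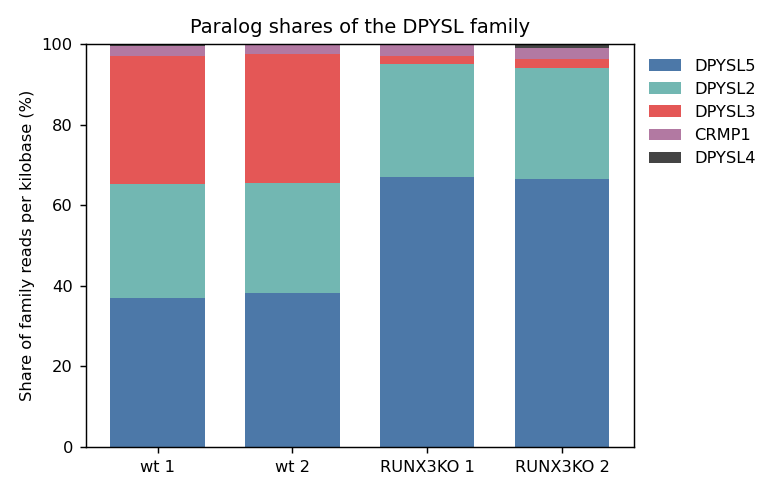
Share of each DPYSL gene in the reads per kilobase of the family, in percent, stacked for each of the 4 libraries. DPYSL3 fills 31.7% and 31.8% of the wt bars and 1.82% and 2.24% of the RUNX3KO bars, while the DPYSL2 band has a height of 27.3% to 28.4% in all 4.

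Reads of 1 paralog could be counted on another only where their sequences are alike. The coding sequences of the 5 genes were 60.6% to 73.5% identical in pairs, and the 4 pairs with DPYSL5 were the least alike. DPYSL3 shared 71.1% of aligned bases with DPYSL2 and 71.8% with CRMP1, and its longest exact match to either was 23 bases. The longest run shared by any pair was 34 bases, between DPYSL2 and CRMP1.

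The receptor genes moved much less than DPYSL3, and the neuropilins moved apart. NRP1, the receptor for SEMA3A, lies on the minus strand at chr10:33466420-33625190 of hg19. It had 421 and 433 counts in wt and 495 and 513 in RUNX3KO libraries, a log2 fold change of 0.23 (SE 0.0706, edgeR adjusted p = 0.00532). The groups did not overlap, but the call was lost with DESeq2 (adjusted p = 0.133) and without RUNX3KO replicate 1 or 2 (edgeR adjusted p = 0.0719 and 0.0944). NRP2, the receptor preferred by SEMA3F, lies on the plus strand at chr2:206546714-206662857 of hg19 and had 227 and 244 counts in wt and 178 and 169 in RUNX3KO libraries. Its log2 fold change was -0.45 (SE 0.105, edgeR adjusted p = 0.000151), and without RUNX3KO replicate 2 it was -0.40 with an adjusted p of 0.0736. The difference of NRP2 from NRP1, compared after their values were seen, was -0.68 on the log2 scale (95% interval -0.93 to -0.43). Counted as a ratio of reads, NRP1 to NRP2 went from 1.85 and 1.77 in wt to 2.78 and 3.04 in RUNX3KO libraries.

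PLXNA1, a signalling partner of both neuropilins, lies on the plus strand at chr3:126701536-126756232 of hg19. Its counts of 1245 and 1155 in wt and 1072 and 1129 in RUNX3KO libraries came close to overlapping. The log2 fold change was -0.14 (SE 0.0468, 95% interval -0.23 to -0.046, edgeR adjusted p = 0.0103), or 1.10-fold. It did not pass with DESeq2 (adjusted p = 0.18) or without wt replicate 1, RUNX3KO replicate 1 or RUNX3KO replicate 2 (edgeR adjusted p = 0.243, 0.285 and 0.173).

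On the ligand side, SEMA3A, the repellent whose growth cone response gave the collapsin response proteins their name, rose. It is on the minus strand at chr7:83585093-84122040 of hg19. Counts were 458 and 443 in wt and 698 and 748 in RUNX3KO libraries, and levels 38.1 ± 0.887 and 60.6 ± 2.18 CPM (SD, n = 2 each). The log2 fold change was 0.67 (SE 0.0642, 95% interval 0.54 to 0.79, edgeR adjusted p = 1.08e-15), a 1.59-fold rise that stayed between 0.63 and 0.71 with each library left out. SEMA3C, a ligand better known for attracting migrating cells, lies on the same strand at chr7:80371854-80551675 of hg19. It had 144 and 135 counts in wt and 115 and 122 in RUNX3KO libraries, a log2 fold change of -0.25 (SE 0.129, 95% interval -0.50 to 0.0053, edgeR adjusted p = 0.105). Its groups did not overlap but it did not pass the test. The difference of SEMA3C from SEMA3A, compared after their values were seen, was -0.92 (95% interval -1.20 to -0.63), and reads of SEMA3A per read of SEMA3C went from 3.18 and 3.28 in wt to 6.07 and 6.13 in RUNX3KO libraries.

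SEMA3A, SEMA3C, SEMA3D and SEMA3E are neighbours on chromosome 7, so the tested genes around SEMA3A were listed. Within 5 megabases of it 19 genes were tested, 10 higher and 2 lower in RUNX3KO cells, against 24.5% higher and 24.4% lower among all tested genes. Their median was 0.18 on the log2 scale. Over the stretch from GNAI1 to SEMA3D, set after the values were seen, 7 of 9 tested genes were higher and 0 lower, with a median of 1.02. The higher genes include CD36 (3.79, SE 0.396) and HGF (3.54, SE 0.58), both imprecise. Their counts are not given here, and they may have entered the test through the RUNX3KO libraries alone. The count and median are thus given as descriptions. SEMA3E, 0.718 megabases from SEMA3A, had 240 and 251 counts in wt and 511 and 494 in RUNX3KO libraries, a log2 fold change of 1.02 (SE 0.0806, edgeR adjusted p = 6.9e-20). SEMA3D, 0.867 megabases away on the other side, had 890 and 895 counts in wt and 2789 and 2842 in RUNX3KO libraries, a log2 fold change of 1.64 (SE 0.0403, edgeR adjusted p = 3.27e-55). The rise of SEMA3A was thus the smallest among the 3 class 3 genes called higher there. SEMA3C and CACNA2D1 were the genes of the stretch that were not called, the latter at 0.11. A median over the 40 nearest tested genes, which reaches further out, was 0.088 around SEMA3A, and the SEMA3A value less that median was 0.58. The part of the position in these values was not tested.

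**Figure D3:**
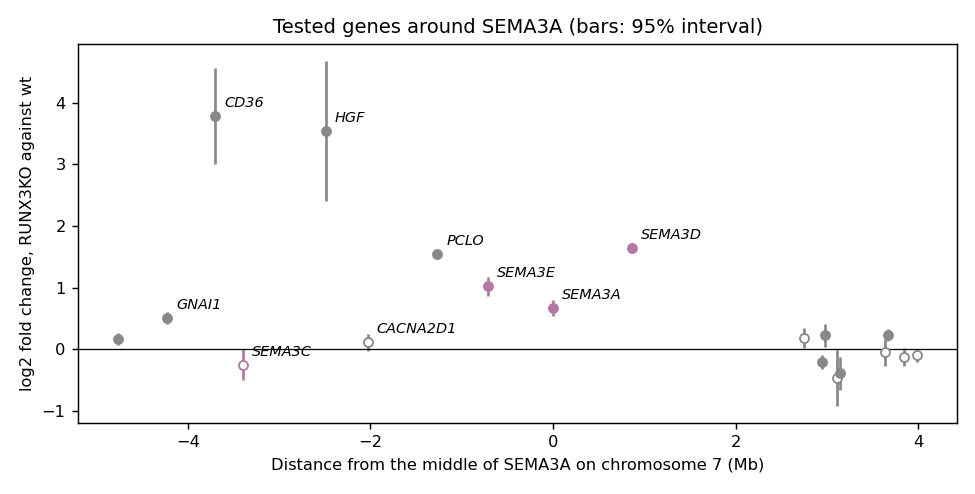
Log2 fold change of RUNX3KO against wt, with 95% intervals, for the 19 tested genes within 5 megabases of SEMA3A, plotted by distance from the middle of that gene in megabases. Filled points passed an adjusted p under 0.05 by edgeR, purple marks class 3 semaphorins, and 7 of the 9 labelled genes from GNAI1 to SEMA3D are filled and above 0. CD36 (SE 0.396) and HGF (SE 0.58) are imprecise and may have entered the test through the RUNX3KO libraries alone.

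Beyond the members, 73 other listed genes of the pathway were found in the tables and 57 were tested. Of these 25 (43.9%) were lower, 11 (19.3%) higher and 21 neither, with a median log2 fold change of -0.077, whereas over all tested genes 3158 were lower, 3183 higher and 6626 neither, with a median of -0.0021. Without RUNX3KO replicate 1 the lower genes among the 57 numbered 16 (28.1%, against 11.6% of all genes tested in that fit) and the higher ones 7 (12.3% against 11.2%). Without RUNX3KO replicate 2 there were 14 lower (24.6% against 10.4%) and 6 higher (10.5% against 9.7%). The counts of each list below stand against 24.4% lower and 24.5% higher among all tested genes. The plot of log2 fold changes gives the ligands and receptors side by side.

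**Figure D4:**
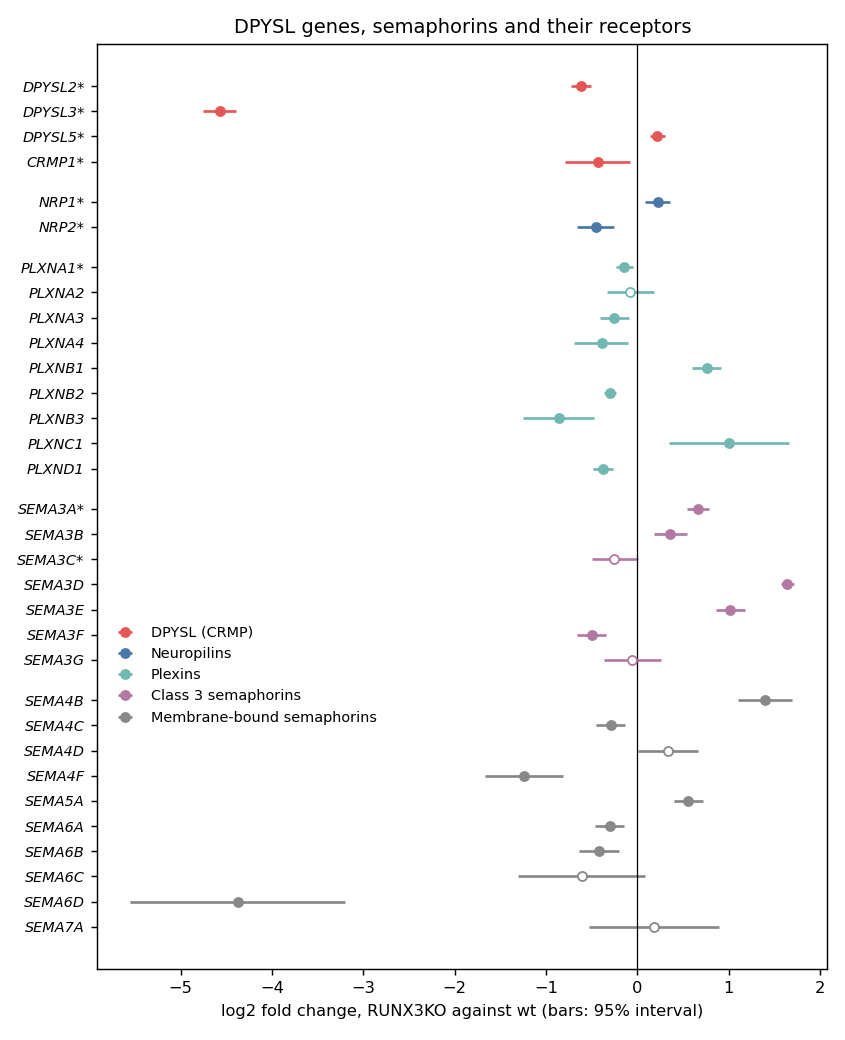
Log2 fold change of RUNX3KO against wt with its 95% interval for the tested DPYSL genes, neuropilins, plexins and semaphorins, with members marked by an asterisk. Filled points passed an adjusted p under 0.05 by edgeR, DPYSL3 stands apart from its family at -4.57, and the SEMA6D point is imprecise because both RUNX3KO libraries held 1 count.

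All 9 plexins were tested, and 6 were lower, 2 higher and 1 neither, with a median of -0.25. PLXNA1, PLXNA3 and PLXNA4 of the A subfamily were lower and PLXNA2 was not called, at -0.075. PLXNB1, a receptor for SEMA4D, had 262 and 328 counts in wt and 499 and 510 in RUNX3KO libraries (log2 fold change 0.76, SE 0.0799, edgeR adjusted p = 6.26e-14), while PLXNB3 went from 82 and 67 to 34 and 49 (-0.86, SE 0.199, edgeR adjusted p = 0.000174). PLXNB2, at -0.30, had 30 of its 32 nearest tested genes below 0, with a median of -0.54 that lay below its own value. PLXNC1, the receptor for SEMA7A, had 15 and 11 counts in wt and 19 and 34 in RUNX3KO libraries, and its log2 fold change of 1.01 (SE 0.335, edgeR adjusted p = 0.009) rested on few reads. Without wt replicate 2, RUNX3KO replicate 1 or RUNX3KO replicate 2 it was 0.80, 1.35 and 0.54, with adjusted p of 0.117, 0.0502 and 0.345.

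The 7 class 3 semaphorins, members included, were all tested. SEMA3A, SEMA3B, SEMA3D and SEMA3E were higher, SEMA3F was lower at -0.50, SEMA3C and SEMA3G were not called, and the median was 0.36. Of 13 membrane-bound semaphorins 10 were tested, with 5 lower, 2 higher and 3 neither and a median of -0.30. SEMA6D, a ligand of the A plexins, had 20 and 26 counts in wt and 1 in each RUNX3KO library, at least 7.74-fold lower against a floor of 3 counts per library. The median around SEMA6D, over 40 tested genes, was 0.22, the opposite direction. SEMA4F went from 66 and 68 to 27 and 30 counts, a log2 fold change of -1.24 (SE 0.219, edgeR adjusted p = 1.03e-06). SEMA4B rose from 61 and 52 to 141 and 160 counts (1.40, SE 0.153, edgeR adjusted p = 3.98e-13). Around SEMA4B 6 of 40 tested genes were below 0, with a median of 0.65, and the SEMA4B value less that median was 0.75, short of 2-fold. SEMA5A, also called higher at 0.56, had 8 of 40 neighbours below 0, with a median of 0.41. The part of the neighbourhood in both was not tested. Taking all 17 tested semaphorins, 6 were lower, 6 higher and 5 neither.

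Downstream of the plexins, 15 of 17 listed effectors were tested and 6 were lower, 0 higher and 9 neither, with a median of -0.074. FYN, the Src-family kinase that binds plexin A and phosphorylates CRMP proteins, fell most, from 109 and 94 counts in wt to 7 and 19 in RUNX3KO libraries. Its log2 fold change was -2.97 (SE 0.247) and moved between -3.83 and -2.43 with each library left out, lowest without RUNX3KO replicate 2 and highest without RUNX3KO replicate 1. FYN, like SEMA6D, passed the filter on low counts through the wt libraries alone, and neither was tested when at least 10 counts were required in every library, so their calls, which are among those counted for their lists, are given as descriptions. MICAL1, which oxidizes actin, was lower at -0.70, and PAK1, a kinase downstream of Rac, at -0.32. MICAL3 at -0.73 and LIMK2 at -0.54 were also called, but all 28 neighbours of MICAL3 and all 40 of LIMK2 had values below 0, called or not, with medians of -0.50 and -0.63. The part of their neighbourhood in these 2 values was not tested.

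Among the kinases of the DPYSL proteins 7 of 8 were tested, DYRK2 at -0.40 and ROCK2 at -0.12 were lower, and the other 5, CDK5, GSK3A, GSK3B and ROCK1 among them, did not pass. Of 9 listed binding partners 8 were tested, 5 lower and 2 higher, with a median of -0.23. TUBA1A had the largest fall of these, from 1314 and 1332 to 722 and 656 counts (log2 fold change -0.95, SE 0.0511, edgeR adjusted p = 3.6e-30), and TUBB3, the beta-tubulin of neurons, went from 1035 and 1024 to 727 and 698 (-0.54, SE 0.0527, edgeR adjusted p = 1.62e-15). TUBA1A and TUBA1B are near-identical copies, so reads may be split between them. Of the other lower partners, KLC1 at -0.26 had 37 of 40 neighbours below 0, with a median of -0.19. NUMB at -0.21 had 32 of 40 below 0, with a median of -0.18. For TUBA1A and TUBA1B 24 of 40 neighbours were below 0, and for TUBB3 10 of 24. The part of the neighbourhood in these values was not tested. CYFIP1, a member of the WAVE complex that CRMP2 carries, rose by 0.34, and 5 of its 23 nearest tested genes were below 0, with a median of 0.20. Of the co-receptors only L1CAM, which joins NRP1 in the SEMA3A receptor, had enough reads, with 634 and 647 counts in wt and 921 and 916 in RUNX3KO libraries (0.51, SE 0.0552, edgeR adjusted p = 2.88e-13). Of the growth factor genes that share neuropilins, VEGFA was lower at -0.21, VEGFB was not called at -0.077, and GIPC1, an adaptor of the NRP1 tail, was higher at 0.13.

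Markers of other cells that use these genes were low in all libraries. The 8 neuronal markers summed to 9.90 and 8.89 CPM in wt and 9.57 and 8.39 CPM in RUNX3KO libraries, with ELAVL4 and STMN2 at 0 throughout and 1 marker called lower and 1 higher. The 6 endothelial markers summed to 1.18 and 0.931 CPM in wt and 0.677 and 0.582 CPM in RUNX3KO libraries, with PECAM1, CDH5 and CLDN5 at 0, and the 5 leukocyte markers, of which 1 was called lower, to between 1.25 and 2.46 CPM. The part of these markers in the results was not tested.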

How the data were processed

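RNA-seq of 2 wt and 2 RUNX3KO libraries of HGC27 was analysed. The authors deposited 1 table of raw counts per gene symbol for each library. Per the submitters' processing notes and the labels, libraries came from a stranded poly(A) kit, and bcl2fastq, HISAT2 2.1.0, HTSeq and hg19 were used; the paper's methods name STAR and featureCounts instead, with different medium and RNA extraction, and versions and the strand setting are otherwise not given in the sources used here. The 5 rows that name no gene held 25.9% to 28.1% of reads and were left out.

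The analysis used edgeR 4.0.16 in R 4.3.3. Genes passing filterByExpr (minimum count 10, minimum total 15) were scaled by TMM and compared with the quasi-likelihood test with p-values adjusted (Benjamini-Hochberg) over the 12967 genes tested, without a replicate block. Levels are TMM-scaled CPM, mean ± SD. On counts simulated from these libraries 200 of 200 changed genes were recovered, with 6 false calls among 12917 tested. The planted changes were all at least 2-fold, in better-expressed genes, with a common dispersion of 0.000211 for every gene. Most member changes were smaller than that, so the simulation does not cover them. Differences between genes were given with intervals from their summed squared standard errors, which treat the genes as independent. Positions came from GENCODE v44 lifted to GRCh37, the same build as hg19, which matched 21766 of 25559 symbols (19607 directly, 2159 through a synonym). The members and lists were chosen with earlier results of these data known. Named were all members, RUNX3 and listed genes past an adjusted p of 0.05 with a fold change of at least 2; other genes were named after their values were seen. Alternatives were DESeq2 1.42.0, limma-voom (limma 3.58.1), other scalings and filters, the replicate block, subtraction of the median of the 40 nearest tested genes, and each library left out in turn. Replicates differed by 1.22 (wt) and 1.18 (RUNX3KO) chi-square per degree of freedom.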

Additional observations from a re-analysis of the deposited data

How the results depend on the processing

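Of 99 refits of the 9 tested members, 85 kept their direction and their side of an adjusted p of 0.05, 14 kept the direction only, and 0 turned. DPYSL2, DPYSL3, DPYSL5 and SEMA3A were called in each of these refits. The 5 lower members became 3 with DESeq2, 3 with no filter and 1 under the 2-fold criteria, and 2 to 5 with each library left out. The 3 higher members became 0 under the 2-fold criteria and were 2 to 3 with each library left out. Of the other listed genes, 14 to 24 were lower and 6 to 12 higher with each library left out. Such a fit leaves 1 group with a lone library, which is assumed to vary like the other group, and tests with fewer samples. With the replicate block 5 members were lower and 3 higher, and no call on a member changed. Deviations of same-numbered libraries correlated at -0.00366 over 10869 genes with a mean of at least 50 counts. Replicates differed by little more than counting noise, so this value cannot decide whether the replicate numbers pair the libraries. The mean share of DPYSL3 in the wt family was 32.1% by raw counts and 29.6% per coding length. That of DPYSL2 was 26.7% in wt and 25.3% in RUNX3KO cells per coding length, against 27.8% in each per exon length. Scaling by DESeq2 size factors or library size alone moved the median of all genes by 0.000464 and -0.0198. Subtraction of the neighbourhood median moved 4 of 9 member values by more than their standard error, NRP1 to 0.33, PLXNA1 to -0.19, SEMA3A to 0.58 and SEMA3C to -0.39. At 11731401 to 12110876 reads per library, DPYSL4 did not pass the filter on low counts, and CRMP1 and PLXNC1 rest on few reads.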
